A study of Homo sapiens with 8 samples.

Results

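Ribosome footprint levels of 44 genes of DNA replication and deoxynucleotide synthesis were compared between CR31B-treated and control IMR32 cells. The 44 genes were the rows of a gene-level table whose Ensembl identifiers, with the version ignored, carry the chosen symbols, out of 60651 rows in all. They comprise 21 licensing and origin-firing genes (MCM2 to MCM7, MCM10, CDC6, CDT1, GMNN, ORC1 to ORC6, CDC45 and the 4 GINS genes). A further 20 are polymerase and fork genes (POLA1, POLA2, PRIM1, PRIM2, POLD1, POLD2, POLD3, POLE, POLE2, PCNA, RFC1 to RFC5, FEN1, LIG1 and RPA1 to RPA3). The remaining 3 supply nucleotides (RRM1, RRM2 and TYMS). All 44 had a mean of at least 1 TPM (a footprint level divided by transcript length and then scaled so that every library has the same total) and were tested.

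IMR32 is a human neuroblastoma cell line with amplified MYCN, labelled here as wild-type neuroblasts of brain origin. Cells of 4 libraries had received CR31B, a relative of silvestrol; such rocaglates act on eIF4A, the helicase that unwinds mRNA leaders for initiating ribosomes. Cells of the other 4 libraries had received DMSO at 0.1%, and both groups were treated for 6 h and given cycloheximide, which stalls elongating ribosomes, just before harvest. The CR31B concentration is not given in the sources used here. RNase I-protected fragments of 28 to 30 nt were sequenced, so each value reflects mRNA abundance and ribosome load together. No matched mRNA levels were analysed here. In such a bulk measurement, fewer cells in S phase and less RNA per cell cannot be told apart.

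Replication origins are licensed in G1, when the origin recognition complex (ORC), CDC6 and CDT1 load the ring-shaped MCM2-7 helicase onto DNA. In S phase, CDC45 and the GINS complex bind the ring and turn it into the active CMG helicase, after which polymerase alpha-primase starts each strand and polymerases delta and epsilon extend it on the PCNA clamp. Ribonucleotide reductase and thymidylate synthase make the deoxynucleotides that the polymerases use. Many of these genes are transcribed under E2F factors and are abundant in fast-dividing tumour cells such as MYCN-amplified neuroblastoma.

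One library stood apart before any comparison. Protein-coding genes took 61.3% of TPM in CR31B replicate 1 and from 51.8% to 52.3% in the other 3 CR31B libraries, against 52.0% to 58.4% in DMSO. The summed TPM of the 44 genes was also highest in that library, and its part in the results was not tested beyond leaving it out. TPM keeps no depth, but the value of a single read could be estimated from genes with 1 transcript. By that estimate CR31B libraries held from 61.3% to 87.1% of the reads of the DMSO library with the same number. This share holds only if reads were spread alike over short and long transcripts in both libraries, which was not tested. A member rested on between an estimated 310 reads (POLE2) and 135397 reads (MCM7) in a library. Of 11 neuroblast markers 10 passed the 1 TPM mean, among them HAND2, GATA3 and ISL1, while none of 9 blood and endothelial markers and none of 6 epithelial markers did, with HBA1, HBB, CD3E, PECAM1 and CDH1 at 0. HAND2, a factor of sympathetic neuroblasts, rose from 181 to 271 TPM (log2 fold change 0.58, adjusted p = 0.0188 by limma). Of 10 mesenchymal markers 3 passed (TWIST1, FN1 and COL1A1), with PRRX1 at 0.

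After CR31B, 1 of the 44 genes changed. GINS1, a subunit of the CMG helicase, was at 50.5% of its DMSO level, and the other 43 did not pass the test in either direction. By limma on log2(TPM + 1), with Benjamini-Hochberg adjustment over 11778 genes, 879 genes were called at an adjusted p under 0.05 (7.46%), of which 473 were lower (4.02%) and 406 higher (3.45%). The members thus gave 1 lower and 0 higher call among 44 (2.27%), and 4 members, counting GINS1, had an unadjusted p under that threshold, beside 2752 of all genes tested (23.4%). The median log2 fold change of the members was -0.002, beside 0.029 over all genes tested. Above 0 lay 22 of the 44 members, beside 6374 of all 11778 genes tested. Without CR31B replicate 1 the members' median was -0.078 and GINS1 was still the 1 member called.

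The intervals of the other members were narrow enough to bound their differences in TPM, which is relative to the total of each library. A loss of footprints shared by all genes would not appear in TPM and was not measured. For 36 of the 44 genes the 95% confidence interval, on the log2(TPM + 1) scale, lay within 1.5-fold in either direction. Over all genes tested this held for 5921 of 11778 (50.3%). The added 1 makes these limits tighter than limits in TPM itself, most so for low genes such as CDT1. MCM10, ORC1, ORC5, POLA1, POLE2, RFC1 and RPA3 reached past 1.5-fold, and every member except GINS1 stayed within 2-fold. The lowest adjusted p among the other 43 was 0.0875 for RPA3 (limma). A p that misses the threshold does not show that the levels were equal. The 4 CR31B values lay wholly above or below the 4 DMSO values in 4 members (GINS1, GINS3, CDC6 and RFC4), while 16.2% of all genes tested showed such separation.

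**Figure D1:**
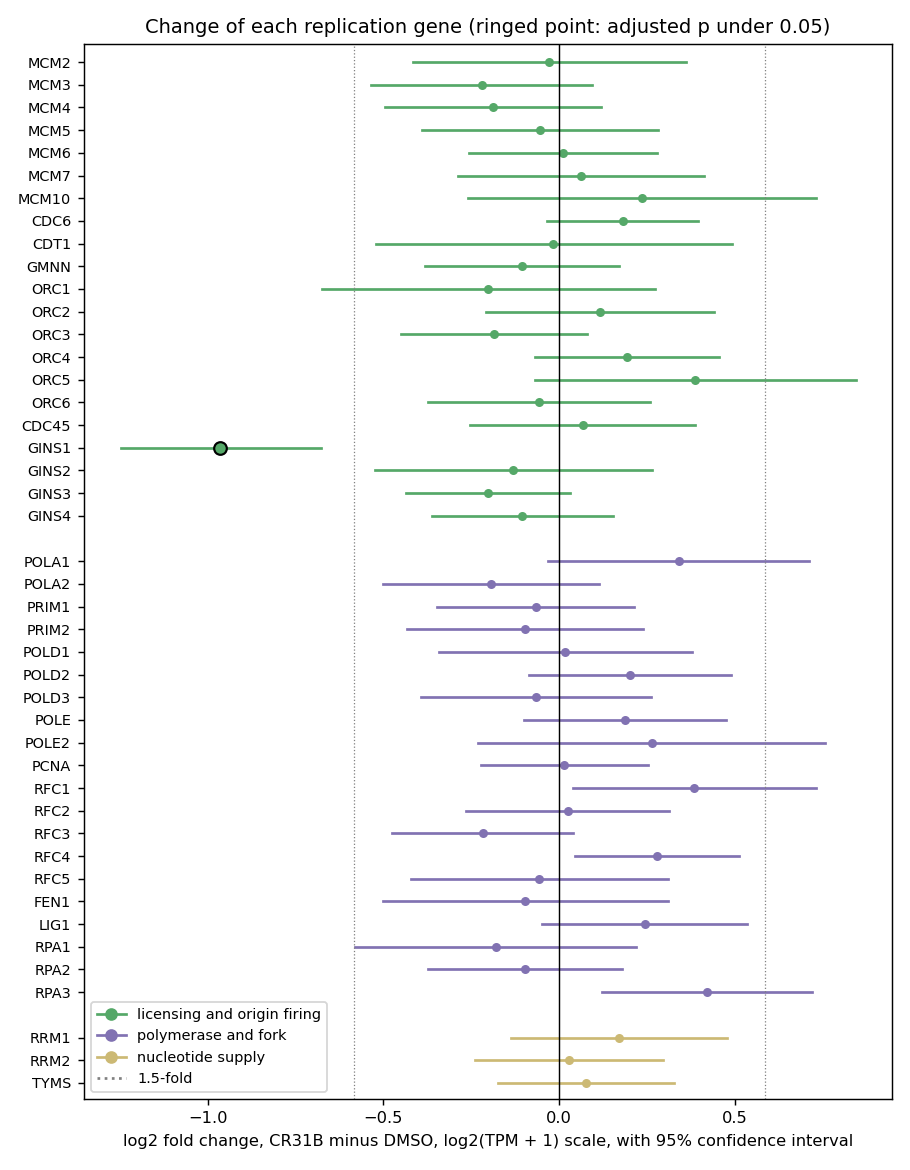
The log2 fold change (CR31B minus DMSO, log2(TPM + 1) scale) of each of the 44 genes is drawn as a point with its 95% confidence interval from 4 and 4 libraries; dotted lines mark 1.5-fold. GINS1, ringed, lies at -0.96, whereas the other 43 points lie between -0.22 and 0.42.

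GINS1 encodes the PSF1 subunit of GINS, a ring of 4 small proteins (GINS1 to GINS4) that joins CDC45 to the MCM2-7 helicase. The gene (ENSG00000101003.10) spans chr20:25407673-25448563 in RefSeq on GRCh38.p14. GINS1 stood at 41.3, 43.3, 50.03 and 44.8 TPM in DMSO replicates 1 to 4 and at 22.4, 21.6, 27.5 and 19.1 TPM in CR31B replicates 1 to 4. Every CR31B library was below every DMSO library, and each was lower than the DMSO library of the same number (4 of 4). The means were 44.9 ± 3.73 TPM in DMSO and 22.6 ± 3.51 TPM in CR31B (SD, n = 4 each). The log2 fold change was -0.96 (SE 0.128, 95% interval -1.25 to -0.68), with an adjusted p of 0.00245 by limma. An exact two-sided permutation test of the 8 values gave p = 0.0286, the smallest that the 70 assignments allow. Estimated reads for GINS1 ran from 3147 to 12337 per library, its exons overlapped no other annotated gene, and no pseudogene copy of it is named in the table.

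The other 3 GINS subunits were not called. GINS3 was 24.2, 22.9, 23.9 and 23.9 TPM in DMSO replicates 1 to 4 and 21.9, 19.6, 22.2 and 18.4 TPM with CR31B. The GINS3 groups did not overlap, but the difference was small (log2 fold change -0.20, adjusted p = 0.283, limma). GINS2 and GINS4 had overlapping groups and log2 fold changes of -0.13 and -0.10. GINS2 read 26.3, 26.4, 18.1 and 28.3 TPM in DMSO against 30.1, 20.1, 19.0 and 21.3 TPM with CR31B.

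Because the 4 proteins form a complex with 1 copy of each, the ratios between subunits were compared in each library. The ratio of GINS1 to GINS3 was 1.89 ± 0.159 in DMSO and 1.10 ± 0.0969 in CR31B (SD, n = 4 each). GINS1 to GINS4 was 1.62 ± 0.146 in DMSO and 0.883 ± 0.156 in CR31B, and GINS1 to GINS2 was 1.89 ± 0.586 and 1.04 ± 0.301. In each of these 3 ratios all CR31B libraries were below all DMSO libraries (exact permutation p = 0.0286 each, 0.0286 after adjustment over the 3). The ratios were computed after the GINS1 values had been seen, so they are not evidence apart from the GINS1 difference. In DMSO the order of mean levels was GINS1, GINS4, GINS2, GINS3, and in CR31B GINS4 came first and GINS1 second, with GINS1 and GINS2 closer than their spread.

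**Figure D2:**
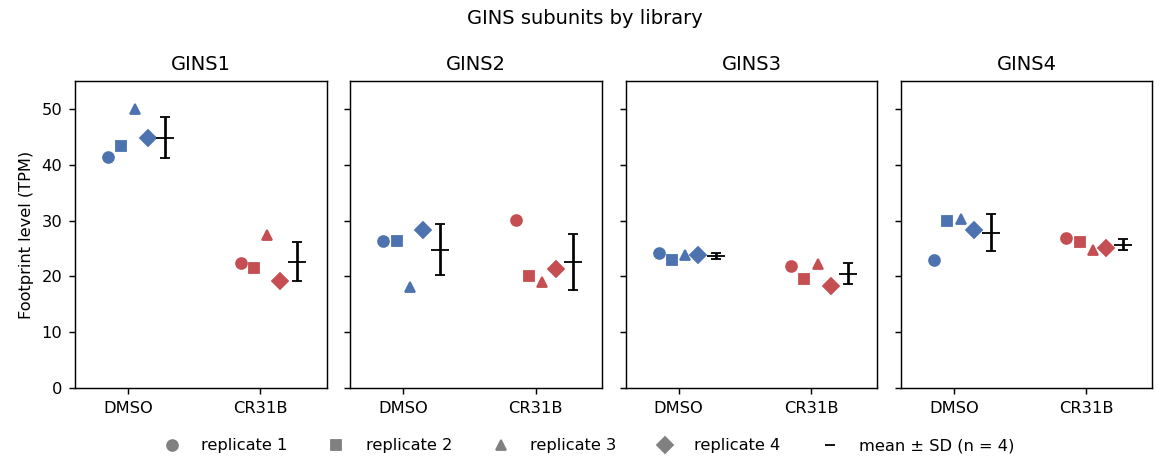
Footprint level (TPM) of the 4 GINS subunits in each library, with the replicate number as the symbol and the mean ± SD (n = 4) as the bar. The GINS1 values with CR31B (19.1 to 27.5) sit below all DMSO values (41.3 to 50.03), whereas GINS2 and GINS4 overlap between groups.

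Among the origin-licensing factors, none of the loaders, the MCM subunits or the inhibitor geminin was called. CDC6, the ATPase that bridges ORC and the helicase, stood at 55.3, 56.1, 60.9 and 60.6 TPM in DMSO replicates 1 to 4 and at 66.1, 69.3, 67.0 and 62.0 TPM with CR31B. The CDC6 groups did not overlap, yet the log2 fold change was 0.18 with an interval of -0.03 to 0.40 (adjusted p = 0.293, limma). CDT1, which brings the helicase to ORC, was low at 6.05, 3.03, 3.55 and 4.70 TPM in DMSO and 6.6, 3.42, 3.99 and 3.21 TPM with CR31B. Both groups of CDT1 spread about the same range, with replicate 1 highest in each, and the log2 fold change was -0.02. GMNN, or geminin, which binds CDT1 and blocks licensing after G1, was more than 10-fold higher than CDT1 in each group. GMNN read 73.7, 60.6, 57.7 and 69.4 TPM in DMSO and 70.2, 60.7, 53.8 and 57.8 TPM with CR31B, a log2 fold change of -0.11. The ratio of CDT1 to GMNN was 0.0653 ± 0.0133 in DMSO and 0.0700 ± 0.0182 in CR31B (SD, n = 4 each), and the groups overlapped.

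ORC, the 6-subunit complex that marks origins, held both signs. ORC5 had the largest positive log2 fold change of the licensing genes, 0.39 (interval -0.07 to 0.84, adjusted p = 0.289, limma). ORC5 was 8.32, 5.88, 4.91 and 7.34 TPM in DMSO and 11.8, 5.94, 9.46 and 8.93 TPM with CR31B. It was higher with CR31B in each of the 4 replicate pairs, while the groups overlapped. ORC1, the subunit whose amount varies over the cell cycle, read 14.8, 8.94, 9.50 and 12.03 TPM in DMSO and 14.4, 9.6, 7.16 and 8.21 TPM with CR31B, a log2 fold change of -0.20. Replicate 1 of both groups was the highest for ORC1. The other log2 fold changes were 0.12 for ORC2, -0.19 for ORC3, 0.19 for ORC4 and -0.06 for ORC6.

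The MCM2-7 ring is made of 6 related ATPases. MCM2 stood at 131, 95.5, 155 and 135 TPM in DMSO and at 159, 125, 100.3 and 122 TPM with CR31B, and the groups covered the same range (log2 fold change -0.03). MCM7, the highest of all 44 genes, read 396, 523, 582 and 443 TPM in DMSO and 564, 536, 521 and 402 TPM with CR31B. Its log2 fold change was 0.06 with an interval of -0.29 to 0.41. The other log2 fold changes were -0.22 for MCM3, -0.19 for MCM4, -0.05 for MCM5 and 0.01 for MCM6, and MCM3 was lower with CR31B in each of the 4 replicate pairs. For MCM2 to MCM7 the CR31B replicate 1 value was the highest of its group.

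Of the factors that act when origins fire, CDC45 completes the CMG helicase and MCM10 activates it. CDC45 was 39.7, 40.5, 52.1 and 41.7 TPM in DMSO and 48.3, 50.6, 49.2 and 35.2 TPM with CR31B (log2 fold change 0.07, interval -0.25 to 0.39). The CDC45 groups overlapped, with CR31B replicate 4 the lowest and DMSO replicate 3 the highest library. MCM10 read 37.0, 32.5, 19.1 and 37.7 TPM in DMSO and 49.8, 33.3, 31.9 and 32.2 TPM with CR31B, a log2 fold change of 0.24. CR31B replicate 1 was the highest and DMSO replicate 3 the lowest MCM10 value, and the MCM10 difference was 0.09 without the former and 0.02 without the latter. Over the 21 licensing and origin-firing genes the median log2 fold change was -0.055, with 8 above 0, beside 6374 of all 11778 genes. Without CR31B replicate 1 this median was -0.143, beside -0.005 over all genes tested, and over all alternatives it lay between -0.143 and 0.002.

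None of the 20 polymerase and fork genes was called by limma, and 3 (RFC1, RFC4 and RPA3) had an unadjusted p under 0.05, beside 23.4% of all genes. Their median log2 fold change was 0.016 and 11 lay above 0, beside 6374 of all 11778 genes tested. POLA1, the catalytic subunit of polymerase alpha, stood at 10.9, 8.64, 6.86 and 10.2 TPM in DMSO and at 14.9, 11.4, 9.72 and 11.2 TPM with CR31B. It was higher with CR31B in all 4 pairs, but the groups overlapped (log2 fold change 0.34, interval -0.03 to 0.71, adjusted p = 0.257, limma). Its partners POLA2 (-0.19) and the primase subunits PRIM1 (-0.07) and PRIM2 (-0.10) had the opposite sign. POLD1, the catalytic subunit of lagging-strand polymerase delta, read 24.2, 16.3, 18.2 and 16.3 TPM in DMSO and 24.04, 17.7, 16.3 and 17.8 TPM with CR31B. The POLD1 values were nearly the same in both groups (log2 fold change 0.02), with replicate 1 the highest of each. POLE, which copies the leading strand, was 14.2, 11.97, 11.6 and 11.5 TPM in DMSO and 15.0, 14.3, 11.6 and 16.0 TPM with CR31B, a log2 fold change of 0.19 with overlapping groups. The accessory subunits POLD2 (0.20), POLD3 (-0.07) and POLE2 (0.26) were not called either.

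The clamp and its loader had no called member. PCNA, the sliding clamp and the highest of the fork genes, stood at 277, 258, 249 and 258 TPM in DMSO and at 296, 267, 248 and 243 TPM with CR31B. Its log2 fold change was 0.01 with an interval of -0.22 to 0.25. RFC1, the large subunit of the clamp loader, read 54.8, 42.7, 42.7 and 55.4 TPM in DMSO and 82.3, 64.5, 55.9 and 55.3 TPM with CR31B. Only CR31B replicate 4 fell among the DMSO values, and the log2 fold change was 0.39 (SE 0.156, adjusted p = 0.166, limma). With TPM rescaled to a fixed sum over protein-coding genes, the RFC1 difference was 0.42 and was called (adjusted p = 0.0397, limma). That scaling called 2 members, beside 1227 of the 11136 genes then tested (662 higher, 565 lower). RFC3 had the most negative value among the fork genes, -0.22, with 49.4, 42.5, 42.9 and 53.3 TPM in DMSO against 44.6, 38.1, 40.9 and 37.2 TPM with CR31B. RFC4 lay higher in all CR31B libraries (103 to 132 TPM) than in all DMSO libraries (95.8 to 99.7 TPM), with a log2 fold change of 0.28 and an adjusted p of 0.142 by limma. RFC4 was named after its values were seen; its exons overlap those of EIF4A2 on the opposite strand by 21 bases, and the log2 fold change of EIF4A2 was 0.78. Whether reads of EIF4A2 enter the RFC4 value was not tested. RFC2 (0.02) and RFC5 (-0.06) were near 0.

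Lagging-strand maturation and single-strand binding genes were not called. FEN1, the flap nuclease that trims RNA primers, stood at 101, 121, 148 and 116 TPM in DMSO and at 89.8, 105, 160.3 and 106 TPM with CR31B, with replicate 3 highest in both (log2 fold change -0.10). LIG1, which seals the fragments, read 27.7, 29.4, 33.1 and 25.7 TPM in DMSO and 42.0, 33.6, 33.3 and 29.7 TPM with CR31B. LIG1 was higher in all 4 pairs with a log2 fold change of 0.24 (interval -0.05 to 0.54). RPA, a complex of 3 proteins that coats single-stranded DNA, had members of both signs. RPA3, its smallest subunit, had the largest positive log2 fold change of all 44 genes, 0.42 (SE 0.135, interval 0.12 to 0.72, adjusted p = 0.0875, limma). It stood at 106, 141, 109 and 124 TPM in DMSO and at 152, 139.7, 191 and 161 TPM with CR31B, so that replicate 2 of each group brought the ranges into contact. RPA1, the large subunit, read 55.4, 38.0, 48.4 and 53.8 TPM in DMSO and 60.5, 40.5, 36.2 and 37.1 TPM with CR31B, a log2 fold change of -0.18. RPA2 was at -0.10.

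The 3 nucleotide-supply genes were among the highest of the 44, and none was called by limma or had an unadjusted p under 0.05. RRM2, the small subunit of ribonucleotide reductase, abundant in S phase, stood at 414, 385, 410.4 and 413 TPM in DMSO and at 496, 399, 361 and 409 TPM with CR31B. The CR31B libraries lay on both sides of the DMSO range, and the log2 fold change was 0.03 (interval -0.24 to 0.30). RRM1, the large subunit, read 132, 95.1, 137 and 139 TPM in DMSO and 148, 139, 147 and 126 TPM with CR31B, a log2 fold change of 0.17. DMSO replicate 2 was low for RRM1 and, less so, for RRM2. TYMS, thymidylate synthase, was 203, 185, 199.98 and 195 TPM in DMSO and 242, 182, 204 and 202 TPM with CR31B, with a log2 fold change of 0.08. All 3 intervals lay within 1.5-fold. The ratio of RRM2 to RRM1 was 3.29 ± 0.510 in DMSO and 2.98 ± 0.406 in CR31B (SD, n = 4 each) and overlapped.

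Summed over each set, the footprints of replication genes overlapped between the groups. The 21 licensing genes summed to 1371 ± 75.9 TPM in DMSO and 1344 ± 170 TPM in CR31B (SD, n = 4 each). The 20 fork genes summed to 1132 ± 22.3 TPM in DMSO and 1201 ± 91.1 TPM in CR31B. The 3 nucleotide-supply genes summed to 727 ± 41.1 TPM in DMSO and 764 ± 82.1 TPM in CR31B. In all 3 sets CR31B replicate 1 was the highest library, as it was in the protein-coding share. Taken as a share of protein-coding TPM, the 44 genes held 0.583% ± 0.0414 in DMSO and 0.609% ± 0.0194 in CR31B, and CR31B replicate 1, at 0.616%, then lay among the other CR31B libraries (0.580% to 0.623%).

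**Figure D3:**
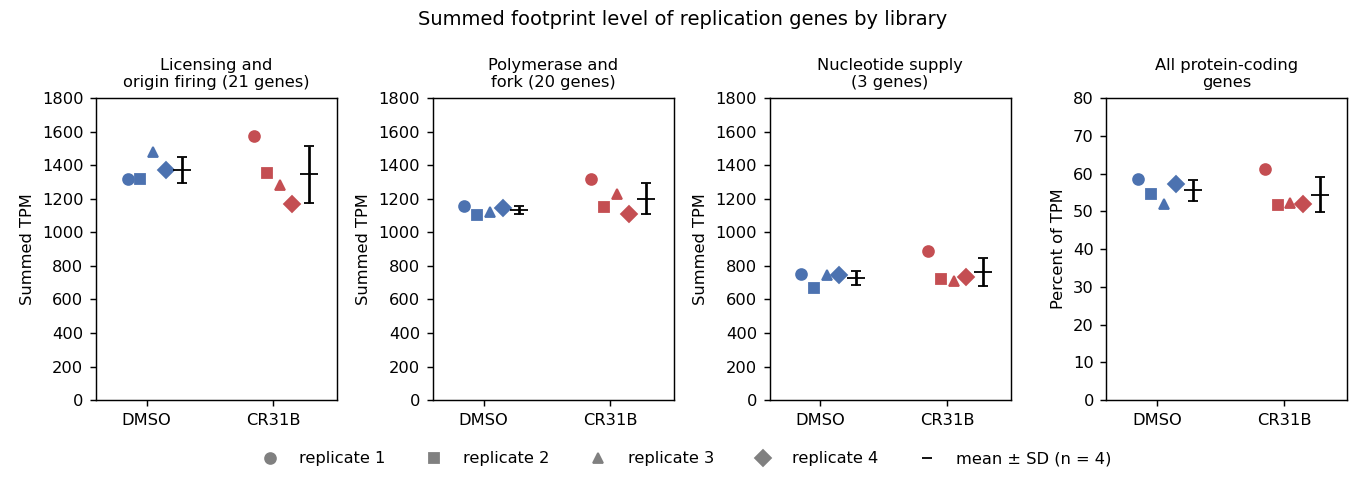
Summed TPM of the licensing, fork and nucleotide-supply genes and the percent of TPM in protein-coding genes, by library, with mean ± SD (n = 4). CR31B replicate 1 (circle) is the highest library in all 4 panels, at 61.3% in the last.

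Subunits of the same complex differed widely in level. In DMSO the mean of MCM7 was 486 TPM and that of MCM6, the lowest of the ring, 47.4 TPM, a 10.3-fold difference. TPM divides by the length of the whole transcript, whereas footprints lie mostly in the coding part, so the means were also set against the coding length of a reference transcript. On that scale MCM7 was still 9.27-fold above MCM6. The order of the means was MCM7, MCM2, MCM4, MCM3, MCM5, MCM6 in both groups, but MCM2 and MCM4 were within their spread of each other. The ratio of MCM7 to MCM6 was 10.4 ± 2.57 in DMSO and 10.6 ± 0.993 in CR31B (SD, n = 4 each).

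Other complexes were also uneven. ORC6 (30.4 TPM) and ORC5 (6.61 TPM) were the ends of the ORC order in DMSO, 4.60-fold apart, whereas per coding length ORC4 came first and stood 12.5-fold above ORC5. ORC4 has only 19.5% of its reference transcript in coding sequence, against 81.8% for ORC1. If these transcripts were the ones used, TPM would understate footprints per codon more for ORC4 than for ORC1. RPA3 was 2.45-fold above RPA1 in DMSO by TPM and 5.80-fold above it per coding length, and RRM2 was 3.23-fold above RRM1 by TPM and 7.33-fold per coding length. The polymerase catalytic subunits POLA1, POLD1 and POLE, at 9.15, 18.7 and 12.3 TPM in DMSO, were far below the clamp PCNA at 260.5 TPM. In DMSO, RFC4 led its complex at 97.2 TPM and the other 4 subunits lay between 45.2 and 56.6 TPM, within or close to the spread of each other.

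**Figure D4:**
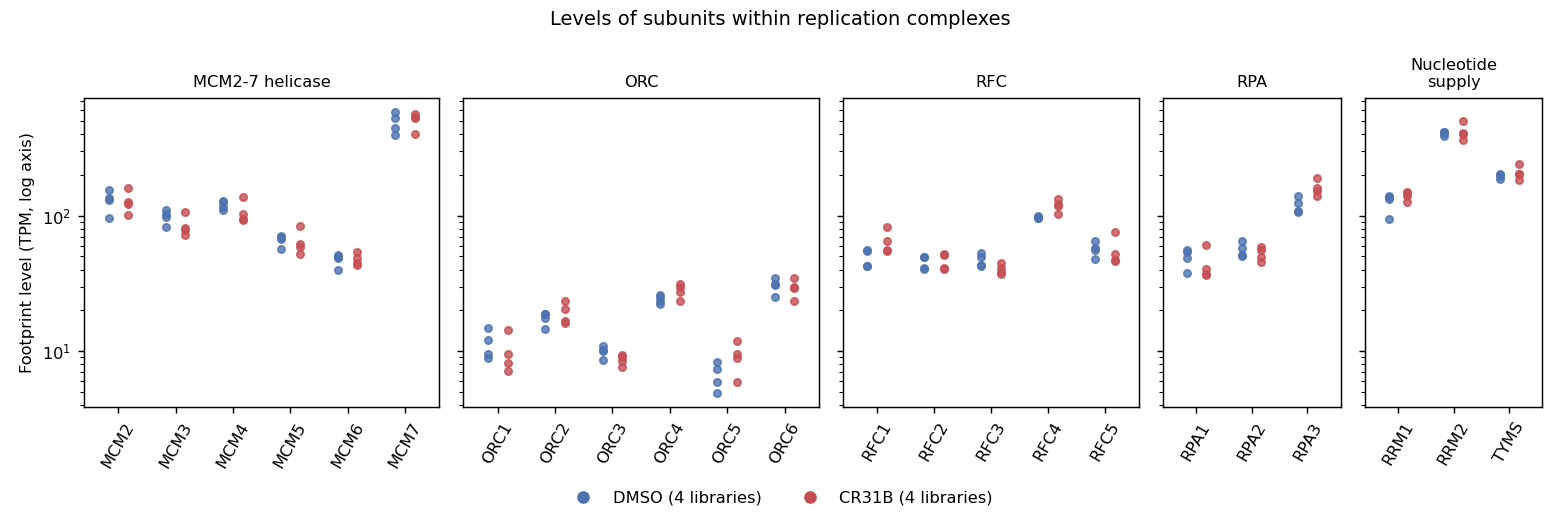
Footprint level (TPM, log axis) of the subunits of MCM2-7, ORC, RFC and RPA and of the nucleotide-supply genes in the 4 DMSO and 4 CR31B libraries. MCM7 stands about 10-fold above MCM6 in both groups, and of the genes drawn here only RFC4 has treated and control points that do not overlap.

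Gene annotation limits some of these values. In GENCODE release 29 the exons of 20 members overlap another gene, 6 of them on the same strand and 16 on the opposite one. The strand setting of the quantification is not given in the sources used here, so reads in shared bases could be assigned either way. TYMS shares 967 bases with ENOSF1 on the opposite strand, where ENOSF1 stood at 8.85 TPM in DMSO and 13.5 TPM in CR31B. The largest same-strand overlaps are 2012 bases in POLA2, 1077 in RRM2, 426 in POLD1 and 362 in PRIM1, each with another protein-coding gene. The genes that overlap POLA2 and POLD1 averaged 0.3 TPM or less in each group. That for PRIM1 stood at 19.9 TPM in DMSO and 19.4 TPM in CR31B, and that for RRM2 had no value here. Pseudogene copies named after 10 members, 18 in all, each had a mean under 1 TPM, the highest being 0.282 TPM for RPA3P1, so few reads were assigned to them.

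Rocaglates are known to clamp eIF4A onto stretches of purines, so the 5′ leaders of the members were read from the GENCODE release 29 transcripts. The longest run of A and G in a member's leader had a median of 8 bases (3 to 15), and the median was also 8 over 10125 coding genes tested. A run of 12 bases or more was found in 8 of 44 members (18.2%) and in 1962 of 10125 genes (19.4%). The leaders of the members had a median length of 179 bases and 62.8% GC, against 205 bases and 66.5% over the genes tested. The windows below show the longest run, in capitals, in 3 GINS genes and in the 5 members that serve as examples of long runs, 5′ to 3′.
GINS1: ctagaacGAAAGGAGtgaggcgc
GINS2: gccgtggcGGGAAAAcggcggcc
GINS3: gtggaagcGGAGAAGctcaagtg
CDC45: cattGGAAAGAAAGGAAGGctgg
POLA2: tccgcGGAGGGGGGAAGGAtaaga
CDC6: gaggtGGAAAGAAGAGGAttgct
MCM3: GAAGAAGAAGAAGctttt
RRM2: tagcgcGGGAGGGGAGGAtggcga

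GINS1, the 1 member that fell, has a longest run of 8 bases, the median length, in a leader of 94 bases. The GINS2 and GINS3 runs are 7 bases. The longest runs, 15 bases in CDC45, 14 in POLA2 and 13 in CDC6 and MCM3, belong to genes with log2 fold changes of 0.07, -0.19, 0.18 and -0.22. RRM2, with 12 bases, was at 0.03. None of the 8 members with a run of at least 12 bases was called, beside 7.46% of all genes tested, and 8 genes are too few to tell from that share. RFC2, FEN1 and LIG1, also with 12, were at 0.02, -0.10 and 0.24. Whether the length of the run bears on the change was not tested. A run is a description of the letters and not of a binding site, and the leader used in IMR32 cells was not measured.

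The promoters were examined for what the members share apart from function. RefSeq windows on GRCh38.p14 from 250 bases before to 50 after a transcription start were matched to 38 of the 44 symbols. The E2F-type motifs TTTGGCGC, TTTCGCGC and TTTCCCGC were searched on both strands, with overlapping matches allowed. At least 1 of them occurred in 19 of 38 members (50%), against 541 of 8746 symbols of genes tested (6.19%) and 961 of all 35116 windows (2.74%). By set, 11 of 18 licensing genes, 7 of 17 fork genes and 1 of 3 nucleotide-supply genes held a match. GINS1, GINS2, GINS3, MCM2 and CDC6 are shown as examples, GINS1 being the member called and the others not called. The capitals mark the motif or its reverse complement.
GINS1: tttgttcgGCGCCAAAgcgcggag
GINS2: tcgccgtgGCGGGAAAacggcggc
GINS3: ccccgggcGCGGGAAAcgagtttc
MCM2: gaaccactTTTCGCGCGAAAcctggttg
CDC6: cattcggaTTTGGCGCgagcgcgg

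These windows lie at chr20:25407670-25407693 for GINS1, chr16:85688970-85688993 on the minus strand for GINS2 and chr16:58392458-58392481 for GINS3. Those of MCM2 and CDC6 are chr3:127598405-127598432 and chr17:40287878-40287901, both on the plus strand, as are GINS1 and GINS3. In MCM2 the capitals hold TTTCGCGC once on each strand, overlapping. GINS1 and CDC6 carry the same motif, TTTGGCGC, on opposite strands, with log2 fold changes of -0.96 and 0.18. Whether a motif or an E2F factor bears on any of these changes was not tested.

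Other genes of the replication pathway were counted in 4 lists, to be read beside the 7.46% of all genes called. Of 37 other origin-firing and fork factors, 36 were tested, 1 rose (2.78%) and none fell, with a median log2 fold change of -0.035. The gene that rose was MTBP, a partner of TICRR that is needed to load CDC45 and GINS. MTBP stood at 9.69, 9.45, 9.65 and 9.96 TPM in DMSO and at 17.5, 16.4, 18.2 and 13.2 TPM with CR31B. The groups did not overlap, and the log2 fold change was 0.69 (SE 0.123, adjusted p = 0.00922, limma). Its partner TICRR (-0.03), the kinase CDC7 (-0.04), TOPBP1 (-0.31) and DONSON (-0.01), which act in the same step, were not called.

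Among 29 other nucleotide synthesis enzymes, all tested, 2 rose (6.90%) and none fell, and the median log2 fold change was -0.007. DTYMK, thymidylate kinase, which acts after TYMS in making dTTP, stood at 43.8, 43.8, 33.9 and 49.5 TPM in DMSO and at 75.2, 68.7, 83.8 and 65.0 TPM with CR31B. All CR31B libraries were above all DMSO libraries, with a log2 fold change of 0.77 (SE 0.137, adjusted p = 0.00922, limma). GUK1, guanylate kinase, rose from 6.07 ± 2.14 to 11.5 ± 1.94 TPM (SD, n = 4 each; log2 fold change 0.86, adjusted p = 0.0331, limma). DTYMK was named after its values were seen, so that both calls are given. GUK1 was not called without CR31B replicate 1, 2 or 4 or DMSO replicate 1, 2 or 4 (0.77, 0.90, 0.83, 0.90, 0.79 and 0.71). With the replicate number as a block 4 of the 29 were called, the added ones being NME1 (lower, -0.48) and IMPDH1 (higher, 0.49). The block also raised the share called over all genes, to 1453 of 11778 (12.3%). TK1, RRM2B and DUT, other enzymes of the deoxynucleotide pool, had log2 fold changes of -0.26, -0.01 and 0.12 and were not called.

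Of 17 E2F, pocket protein and DREAM complex genes, 1 rose and 1 fell (11.8% called), with a median log2 fold change of 0.121. E2F2, an activating E2F, fell from 7.14, 5.34, 7.81 and 5.67 TPM in DMSO to 4.53, 3.46, 2.44 and 2.76 TPM with CR31B (log2 fold change -0.81, SE 0.180, adjusted p = 0.0243, limma). LIN54, the DNA-binding subunit of DREAM, rose from 2.68, 3.41, 3.05 and 3.40 TPM to 6.02, 6.21, 12.3 and 5.11 TPM (log2 fold change 0.96, SE 0.224, adjusted p = 0.0288, limma). CR31B replicate 3 was far above the others for LIN54. E2F2 was not called without CR31B replicate 3 or 4 or DMSO replicate 1, 3 or 4 (-0.71, -0.76, -0.77, -0.73 and -0.86). LIN54 was not called without DMSO replicate 1, 2, 3 or 4 (0.90, 0.99, 0.95 and 0.99). With the block 3 of the 17 were called, beside 12.3% of all genes, E2F6 (-0.46) being the third. E2F1 (-0.12) and E2F3 (-0.25), the other activating E2F genes, were not called. Of 13 genes of the replication stress checkpoint none was called (median 0.067), and with the block 1 was, WEE1 (-0.46), the kinase that restrains CDK1 and CDK2. At an unadjusted p under 0.05, 2 of those 13 passed, beside 23.4% of all genes.

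**Figure D5:**
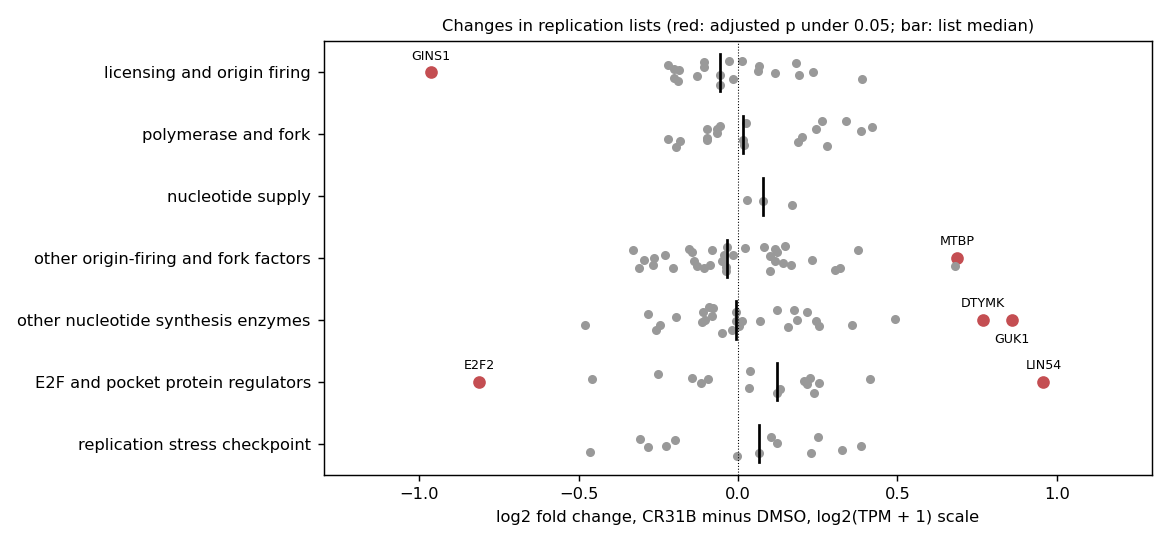
The log2 fold change (CR31B minus DMSO, log2(TPM + 1) scale) of each gene tested in the 3 member sets and the 4 pathway lists, red where the adjusted p was under 0.05, with a bar at the median of each list. GINS1 (-0.96) and E2F2 (-0.81) lie alone on the left; MTBP, DTYMK, GUK1 and LIN54 lie at 0.69 to 0.96 on the right.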

How the data were processed

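The authors deposited 1 table of gene-level TPM for 8 libraries, which divides by transcript length and gives every library the same total, so that a rise elsewhere lowers other genes. Per the submitters' processing notes the tools named include cutadapt 3.2, Bowtie2 2.3.4.1, STAR 2.7.1a and RSEM 1.2.28 with GRCh38; their settings and the annotation are not given in the sources used here. TPM are not counts, so log2(TPM + 1) values of the 11778 of 60651 genes that averaged 1 TPM or more were fitted with limma 3.58.1 in R 4.3.3 (lmFit, eBayes with trend), with treatment as the only term and Benjamini-Hochberg adjustment at 0.05. Fold changes on this scale understate those of low genes. For single values the exact permutation test, two-sided, used all 70 assignments of the libraries.

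The design text calls the 4 libraries of a group biological replicates. After group means were removed, libraries of the 2 groups with the same number correlated across genes at 0.333, 0.324, 0.301 and 0.105, and those with different numbers at -0.206 to 0.134. The main fit and its intervals nevertheless left the numbers out, and a blocked fit, which treats them as pairs, was run as an alternative. With the block 1453 genes were called in place of 879. The blocked intervals of POLA1 (0.09 to 0.59) and ORC5 (0.04 to 0.74) lay above 0, unlike those of the main fit, but neither gene was called.

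The members and the gene lists were chosen with earlier results of these data known, and 3 genes of the lists are not reported here. Values are given for each member called, for the largest and smallest log2 fold change of each set and for 19 key members, and from each list for the called gene with the largest rise or fall. Other members are given by log2 fold change. Reference transcripts and exon overlaps came from GENCODE release 29 and promoters from RefSeq on GRCh38.p14. The value of 1 read was estimated from low genes with 1 transcript, using the transcript length less 28 nt. Tables and figures were made in Python 3.11.15, using pandas 2.3.3, NumPy 2.4.6, matplotlib 3.10.9 and SciPy 1.17.1. The alternatives were other pseudocounts, filters, scalings, variance models, weights, the block and leaving out each library.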

Additional observations from a re-analysis of the deposited data

Results flagged for a closer look

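Within each group of 4 libraries, the highest or lowest library was set against the other 3. In 120 groups examined, 13 had a library whose gap to the nearest other exceeded 0.829 of the range, and chance gives about 1 in 20 (6.0 here). CR31B replicate 1 was high for MCM10 (49.8 TPM, others 31.9 to 33.3), POLA2 (33.9 TPM, others 29.5 to 30.0), the summed nucleotide-supply genes (886 TPM, others 712 to 737) and the share of TPM in protein-coding genes (61.3%, others 51.8% to 52.3%). CDC45 was low in CR31B replicate 4 (35.2 TPM, others 48.3 to 50.6) and high in DMSO replicate 3 (52.1 TPM, others 39.7 to 41.7).

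DMSO replicate 2 was low for RRM1 (95.1 TPM, others 132 to 139), RRM2 (385 TPM, others 410.4 to 414) and the summed nucleotide-supply genes (665 TPM, others 746 to 749), and its ratio of RRM2 to RRM1 was high (4.05, others 2.98 to 3.14). POLE was high in DMSO replicate 1 (14.2 TPM, others 11.5 to 11.97). The ratio of GINS1 to GINS2 was high in DMSO replicate 3 (2.77, others 1.57 to 1.64). LIN54 was high in CR31B replicate 3 (12.3 TPM, others 5.11 to 6.21).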

How the results depend on the processing

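GINS1 was called under all 19 alternatives, with log2 fold changes from -1.06 to -0.86 and adjusted p from 0.000684 to 0.0135 (limma). Licensing genes called stayed at 1 and nucleotide-supply genes called at 0 throughout, and the members' median lay between -0.078 and 0.038. Rescaling over protein-coding genes gave 2 members called and 1 fork gene called (RFC1), beside 1227 of the 11136 genes then tested. Genes called in all were 1321 with array weights (548 higher, 773 lower), 442 with no filter on low values, 1453 with the replicate block, and 404 to 785 when 1 library was left out: 516 without CR31B replicate 4, and 502, 514 and 404 without DMSO replicates 1, 2 and 4. The block changed the call of no member (GINS1 adjusted p 0.00305). Without the low filter GUK1, LIN54 and E2F2 were not called. No scaling moved the median of all genes by more than 0.034.

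Of 832 member values under the alternatives, 789 kept direction and side of the threshold, 1 was called in place of not called and 42, over 14 uncalled members, changed sign near 0. With array weights MCM6 was -0.035, PCNA -0.018 and RFC2 -0.071. Median-of-ratios scaling gave MCM6 -0.008, POLD1 -0.001 and PCNA -0.005, quantile normalization MCM2 0.015, MCM6 -0.002 and POLD1 -0.017, and rescaling over protein-coding genes MCM2 0.006 and CDT1 0.012. When 1 library was left out the ranges were MCM2 -0.165 to 0.076, MCM5 -0.192 to 0.035, MCM6 -0.070 to 0.055, MCM7 -0.031 to 0.168, CDT1 -0.202 to 0.130, ORC6 -0.141 to 0.041 and PRIM2 -0.193 to 0.034. They were POLD1 -0.096 to 0.141, POLD3 -0.197 to 0.014, PCNA -0.042 to 0.052, RFC2 -0.036 to 0.086, RFC5 -0.214 to 0.017, FEN1 -0.264 to 0.012 and RRM2 -0.059 to 0.093. The causes were not tested. Depth limits low members most, and their reads are estimates only.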
